A study of Mus musculus with 6 samples.

Results

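The 49 genes described here encode the machinery of mitosis and its spindle checkpoint: the mitotic cyclins and CDK1 with their switches, the Aurora and Polo kinases, the checkpoint proteins, the kinetochore, the spindle motors and the proteins of cell cleavage. They were chosen by function, as a list of names, with earlier results of these data known. Their probes are all those on the array whose RefSeq accession leads to 1 of these names, 67 of 55681 probes. All 49 genes had a probe, and all 67 probes were well above background on all 6 arrays, so none entered through 1 group alone. The RNA came from cells of the cerebral neocortex of C57BL/6N mouse embryos, labelled as neural progenitor cells of E12.5, while the protocol gives embryonic day 12. In the control group (3 arrays) the pregnant dams were injected with saline. In the phenobarbital group (3 arrays) they received 80 mg/kg of phenobarbital, a barbiturate anticonvulsant that acts at GABA-A receptors, from a solution of 8 mg/mL. Injections were given 6 h apart on embryonic days 10 to 11. In both groups the cortex was dissociated, the cells were plated on poly-L-ornithine and fibronectin, and RNA was taken 4 h after plating. The labels do not say how many embryos or litters stand behind an array, and p-values therefore reflect no more than the scatter among these samples, part or all of which could be technical.

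In the cortex at this age, radial glial progenitors divide at the ventricular surface. A dividing cell switches on CDK1 with cyclin A and cyclin B, condenses its chromosomes and builds a spindle. The spindle checkpoint holds back the anaphase-promoting complex until every kinetochore is attached to microtubules, after which sister chromatids part and the cell is cleaved. RNA of most of these genes is low in G1 and high in G2 and mitosis, which is why genes such as Mki67 and Top2a are used as marks of cycling cells. In bulk RNA, fewer dividing cells and less RNA per dividing cell cannot be told apart.

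What many of these genes share in sequence is the promoter of G2 and M phase genes. There, a cell cycle genes homology region (CHR) lies near the start and is bound by the MuvB complex. CCAAT boxes for the factor NF-Y lie before it. RefSeq promoter windows (build GRCm38.p6) of 300 bases, 250 before the start and 50 after it, were at hand for 40 of the 49 genes, with 2 windows for 3 of them. They were searched on both strands for a CHR, written as TTTGAA or TTCGAA, and for CCAAT, each counted on its own. Of the 43 windows, 79.1% held a CHR, against 19.2% of all 32851 windows. In the last 110 bases of the window, which begin 60 bases before the start, the shares were 72.1% and 5.90%. A CCAAT box was found in 74.4% against 37.4%, and both motifs in 67.4% against 7.52%. A match is a description of these letters, not a site shown to be used. Bub1b had a CHR that began at position 41 after the start, and Cenpa at position 17. Ccnb1 had CCAAT boxes without a CHR, and Birc5 and Mad2l1, among others, had neither motif. Below are the 120 bases before the start of 3 genes with a CHR there, with CHR and CCAAT letters in capitals. They are shown because they share these motifs and differ in call: Top2a rose, Ube2c rose on 1 of its probes, and Cdk1 did not pass on any probe. The 3 genes were not compared with one another, and a link between motif and call was not tested.
Top2a, chr11:99024190-99024309, minus strand, a CHR beginning 23 bases before the start: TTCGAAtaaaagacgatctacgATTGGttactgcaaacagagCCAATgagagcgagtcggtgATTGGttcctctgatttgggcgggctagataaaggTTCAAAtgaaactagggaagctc
Ube2c, chr2:164769809-164769928, plus strand, a CHR beginning 29 bases before the start: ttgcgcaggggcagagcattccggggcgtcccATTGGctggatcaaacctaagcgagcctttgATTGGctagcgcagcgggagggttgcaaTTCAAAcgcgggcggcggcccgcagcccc
Cdk1, chr10:69352913-69353032, minus strand, a CHR beginning 15 bases before the start: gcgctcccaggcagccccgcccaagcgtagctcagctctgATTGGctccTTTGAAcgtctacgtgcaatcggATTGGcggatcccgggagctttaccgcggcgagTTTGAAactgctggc

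On each array 62.8% to 68.7% of spots exceeded background clearly. Control replicate 1 and the 3 phenobarbital arrays shared slide 1, while control replicates 2 and 3 each had a slide of their own, so slide and group overlap in part. Levels are given as log2 signal relative to the array's 75th percentile, and differences as phenobarbital minus control on that scale. Levels of different genes come from different probes and are not compared. Of 10 markers of cortical progenitors (among them Sox2, Pax6 and Nes) and 10 of neurons, all were well above background on every array, so RNA of both cell types was present. The summed level of the neuronal markers, as multiples of the 75th percentile, was 317 to 350 on control and 213 to 243 on phenobarbital arrays, and 5 of 10 fell. That of the progenitor markers was 519 to 574 and 414 to 489, with 1 rise and 1 fall. That of 6 markers of intermediate progenitors, which also divide, was 120 to 125 and 88.3 to 93.9, without overlap, and Insm1 of that list fell by 0.88 (limma, adjusted p = 0.00878) while the other 5 did not pass. Of other cell types, choroid plexus markers rose in 5 of 7 tested (summed level 1.98 to 4.20 and 11.8 to 23.1, with Kcne2 below background on every control array). Markers fell in 5 of 8 for red blood cells (936 to 1299 and 636 to 670), in 4 of 8 for endothelium (70.7 to 81.7 and 42.5 to 49.6) and in 6 of 8 for meninges and mural cells (54.9 to 59.6 and 30.9 to 37.4). Of 8 microglial markers 1 rose and 3 fell (9.97 to 11.9 and 9.57 to 12.1). Every other marker tested was above background on all control arrays. The part of these cell types in the results on mitosis genes was not tested.

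The question here is whether phenobarbital given to the dam changed the RNA of mitosis genes in the embryos' cortical cells. Among the 49 the test found 4 rises and no fall, and 45 missed the threshold (limma, adjusted p below 0.05 over 25304 genes). The 4 were Bub1b, a checkpoint kinase-like protein of the kinetochore, Cdc25c, a phosphatase that switches on CDK1, Top2a, the DNA topoisomerase that untangles chromosomes, and Cenpa, the histone H3 variant that marks centromeres. The count of members past the threshold was 1, Bub1b, without any 1 phenobarbital array or with the slide as a fixed block, 4 (the same genes) with the slide as a random block, 2 without control replicate 1 or 3, and 6 without control replicate 2. The share that rose was 8.16%, against 6.24% of all genes tested, and 10.5% of all genes fell (16.7% in either direction). At an unadjusted p below 0.05 there were 12 of the 49, or 24.5%, against 35.7% of all genes. The list's median log2 fold change was -0.01 against -0.16 for all genes, a gap of 0.15 that ran from 0.07 to 0.27 over 20 other ways of processing. Of the 49, 39 lay above the median of all genes. Groups did not overlap for 24 of the 49 (44.1% of all genes), with phenobarbital above in 15 (30.6%, background 11.7%) and below in 9 (18.4%, background 32.4%). Here and for probes below, overlap was counted under the main scaling alone. The 75th percentile signal itself was 1116 to 1291 on control and 1803 to 1862 on phenobarbital arrays. Falls among all genes numbered 2654 with that scaling, 1325 after quantile normalization and 1028 with scaling to the median. For 41 of the 49 genes the log2 fold change was under 0.5 in size, 8 exceeded 0.5 and none lay under -0.5. The 95% interval lay within -1 and 1 for 42 genes.

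**Figure D1:**
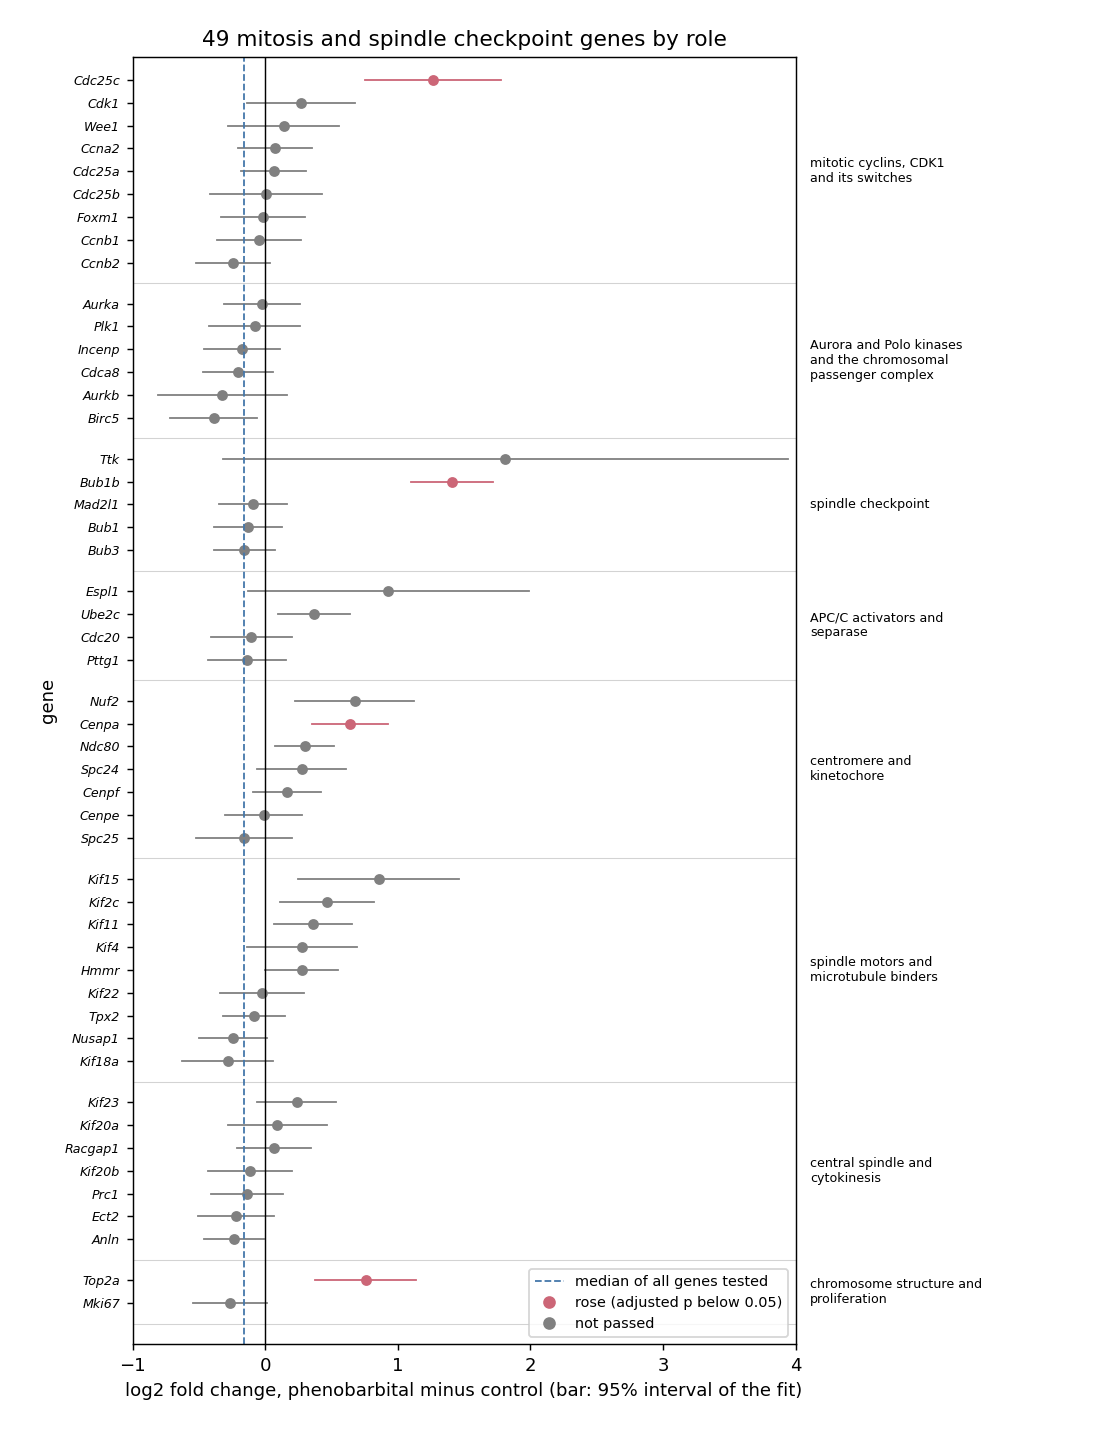
Log2 fold change (phenobarbital minus control, x axis) of the 49 genes by role (y axis), with the 95% interval of the limma fit as a bar and n = 3 arrays per group. The 4 genes in red (Cdc25c, Bub1b, Cenpa and Top2a) rose, the 45 in grey did not pass, and the dashed line is the median of all genes tested, -0.16.

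Among the 9 cyclins, CDK1 and its switches, Cdc25c rose and 8 did not pass. Cdc25c stood at -1.21, -1.98 and -1.34 on control replicates 1 to 3 and at -0.27, -0.13 and -0.32 on phenobarbital replicates 1 to 3. All phenobarbital arrays lay above all control arrays, and control replicate 2 was the lowest. The difference was 1.27 ± 0.21 (SE), or 2.41-fold (95% interval 1.69 to 3.44), with an adjusted p of 0.0173 in limma. A fixed block for the slide, so that only control replicate 1 faces the phenobarbital arrays, left 0.97, which did not pass (adjusted p = 0.0536), while a random block left 1.17 (adjusted p = 0.0217). Nor did it pass without phenobarbital replicates 1, 2 or 3 (adjusted p = 0.0581, 0.0706 and 0.0588), or with the replicate number as a block. Cdk1, the kinase of mitotic entry, stood at 3.11, 2.69 and 3.13 on control and at 3.26, 3.43 and 3.04 on phenobarbital arrays. Its groups overlapped, and the difference was 0.27 ± 0.17 (interval -0.13 to 0.67). Ccnb1, the cyclin B1 that activates CDK1, stood at 3.90, 3.61 and 3.53 against 3.69, 3.69 and 3.52, a difference of -0.05 ± 0.13 (interval -0.37 to 0.27). Foxm1, the transcription factor of G2 and M phase genes, stood at 2.48, 2.15 and 2.26 against 2.27, 2.42 and 2.15, a difference of -0.02 ± 0.13. The groups of both overlapped on this probe, and both had another probe that rose, given below. The other members that did not pass ran from -0.24 ± 0.12 for Ccnb2, a second B-type cyclin, to 0.14 ± 0.17 for Wee1, the kinase that holds CDK1 off. Between them lay cyclin A2 (Ccna2, 0.07 ± 0.12) and the phosphatases Cdc25a (0.07 ± 0.10) and Cdc25b (0.01 ± 0.18). For Ccnb2 all phenobarbital arrays lay below all control arrays.

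None of the 6 genes of the Aurora and Polo kinases and of the chromosomal passenger complex passed, and 2 of the 6 lay above the median of all genes. Aurka, the kinase of the spindle poles, stood at 4.34, 4.25 and 4.11 on control and at 4.20, 4.34 and 4.08 on phenobarbital arrays, a difference of -0.03 ± 0.12. Plk1, the Polo kinase, stood at 5.11, 4.76 and 4.97 against 4.89, 5.01 and 4.69, a difference of -0.08 ± 0.14. Aurkb, the kinase of the passenger complex, stood at -2.47, -2.60 and -1.95 against -2.58, -2.50 and -2.91, a difference of -0.32 ± 0.20. The groups overlapped for all 3 kinases. Birc5, the survivin subunit that brings this complex to the centromere, stood at 5.74, 5.83 and 5.55 against 5.41, 5.44 and 5.11. Its phenobarbital arrays all lay below the control arrays, and the difference of -0.39 ± 0.14 was the lowest of the 49 but did not pass (limma, adjusted p = 0.0971). Cdca8, the borealin subunit, stood at 5.26, 5.18 and 5.04 against 5.04, 4.96 and 4.87, a difference of -0.20 ± 0.11. Its phenobarbital arrays too all lay below the control arrays. Incenp, the scaffold of the complex, had -0.17 ± 0.12.

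In the spindle checkpoint Bub1b rose and 4 of 5 genes did not pass. Bub1b, which encodes BubR1 and delays anaphase as part of the mitotic checkpoint complex, stood at -0.13, 0.02 and -0.38 on control and at 1.24, 1.27 and 1.23 on phenobarbital arrays. The phenobarbital arrays had an SD of 0.03 and all lay above every control array. The difference was 1.41 ± 0.13, or 2.66-fold (95% interval 2.14 to 3.30), with an adjusted p of 0.00345 in limma. Bub1b passed under all 20 other ways of processing, with adjusted p from 0.000255 to 0.0409, and a fixed slide block left 1.37. It has 1 probe. Bub1, the kinase that recruits checkpoint proteins to the kinetochore, stood at 1.15, 1.05 and 0.91 against 0.95, 0.86 and 0.91, a difference of -0.13 ± 0.11. Mad2l1, the MAD2 protein that binds CDC20, stood at 3.27, 3.20 and 3.21 against 3.18, 3.24 and 3.002, a difference of -0.09 ± 0.11. Their groups overlapped. Bub3, another checkpoint gene, had -0.16 ± 0.10, with all phenobarbital arrays below all control arrays. Ttk, the MPS1 kinase that starts the checkpoint, led the 49 in size at 1.81 ± 0.89 and did not pass (adjusted p = 0.193). Its values were -2.44, -2.66 and -2.97 on control and -2.34, 1.30 and -1.59 on phenobarbital arrays, so that phenobarbital replicate 2 stood far above the other arrays.

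None of the 4 genes of anaphase onset passed on the tested probe. Cdc20, the activator of the anaphase-promoting complex that the checkpoint holds, stood at 5.38, 5.35 and 5.25 on control and at 5.11, 5.44 and 5.13 on phenobarbital arrays, a difference of -0.10 ± 0.13. Ube2c, the ubiquitin-conjugating enzyme of that complex, stood at 4.15, 4.28 and 4.02 against 4.54, 4.58 and 4.43. Every phenobarbital array of Ube2c lay above every control array, and the difference of 0.37 ± 0.11 did not pass (limma, adjusted p = 0.0686). Espl1, the separase that cuts cohesin, had 0.93 ± 0.44, with control replicate 2 at -0.75 against 0.89 and 0.87 on the other controls and 1.14 to 1.34 with phenobarbital. Pttg1, the securin that restrains separase, had -0.14 ± 0.12.

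In the centromere and kinetochore list Cenpa rose and 6 of 7 did not pass, and all 7 lay above the median of all genes. Cenpa stood at 2.29, 2.01 and 2.25 on control and at 2.81, 2.90 and 2.75 on phenobarbital arrays, with no overlap. The difference was 0.64 ± 0.12, or 1.56-fold (95% interval 1.28 to 1.90), with an adjusted p of 0.0220 in limma. A fixed slide block left 0.53 (adjusted p = 0.162) and a random one 0.61 (0.0301). The call ended without control replicate 1 (adjusted p = 0.0636), control replicate 3 (0.0515) or any phenobarbital replicate (0.0552 to 0.0818), and held without control replicate 2. It also ended with no filter on dim probes and with the replicate number as a block. Of the 4 subunits of the NDC80 complex, which ties kinetochores to microtubules, Nuf2 had 0.68 ± 0.19 (adjusted p = 0.0540), Ndc80 0.30 ± 0.09, Spc24 0.28 ± 0.14 and Spc25 -0.16 ± 0.15. The kinetochore proteins Cenpe, a motor, and Cenpf had -0.01 ± 0.12 and 0.16 ± 0.11. For Nuf2, Ndc80 and Cenpf all phenobarbital arrays lay above all control arrays.

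None of the 9 spindle motors and microtubule binders passed on the tested probe. Kif11, the kinesin Eg5 that pushes spindle poles apart, stood at 0.44, 0.52 and 0.25 on control and at 0.90, 0.69 and 0.70 on phenobarbital arrays. The groups did not overlap, and the difference was 0.36 ± 0.12 (interval 0.07 to 0.65, limma adjusted p = 0.0876). Kif15, a motor that can take over from Kif11, had the highest value of this list, 0.86 ± 0.25 (adjusted p = 0.0636). Kif2c, a depolymerase of microtubule ends, had 0.47 ± 0.15 and Hmmr, a spindle pole protein, 0.27 ± 0.12. For Kif15, Kif2c and Hmmr too, every phenobarbital array lay above every control array. The reverse held for Nusap1, a binder of spindle microtubules (-0.24 ± 0.11), and for Kif18a, a motor that limits chromosome movement (-0.28 ± 0.14), the lowest of this list. The chromosome-bound motors Kif4 and Kif22 had 0.27 ± 0.17 and -0.03 ± 0.13, and Tpx2, the activator of Aurora A, had -0.08 ± 0.10.

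None of the 7 genes of the central spindle and cytokinesis passed, with values from -0.24 ± 0.09 for Anln, a scaffold of the contractile ring, to 0.24 ± 0.12 for Kif23, a motor of the central spindle. Racgap1, the partner of Kif23, had 0.07 ± 0.12 and Ect2, the exchange factor they recruit, -0.22 ± 0.12. The midzone proteins Prc1, Kif20a and Kif20b had -0.14 ± 0.11, 0.09 ± 0.16 and -0.11 ± 0.13. All phenobarbital arrays lay below all control arrays for Anln and Ect2, and above them for Kif23.

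The 2 common marks of cycling cells did not move alike. Top2a stood at 1.72, 1.65 and 1.56 on control and at 2.32, 2.18 and 2.71 on phenobarbital arrays, with no overlap. The difference was 0.76 ± 0.16, or 1.69-fold (95% interval 1.30 to 2.20), with an adjusted p of 0.0289 in limma. A fixed slide block left 0.68 (adjusted p = 0.203) and a random one 0.73 (0.0434). The call ended without control replicate 1 (adjusted p = 0.0830), control replicate 3 (0.0749) or any phenobarbital replicate (0.0512 to 0.0807), and held without control replicate 2. It also ended with no filter on dim probes and with the replicate number as a block. Mki67, which encodes the Ki-67 protein that coats mitotic chromosomes, stood at 4.57, 4.73 and 4.41 against 4.34, 4.29 and 4.30. All 3 phenobarbital values lay below the control values, and the difference of -0.27 ± 0.12 did not pass (interval -0.54 to 0.01, adjusted p = 0.154). Its other probe had -0.20 ± 0.16. The difference between the 2 genes was not tested.

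**Figure D2:**
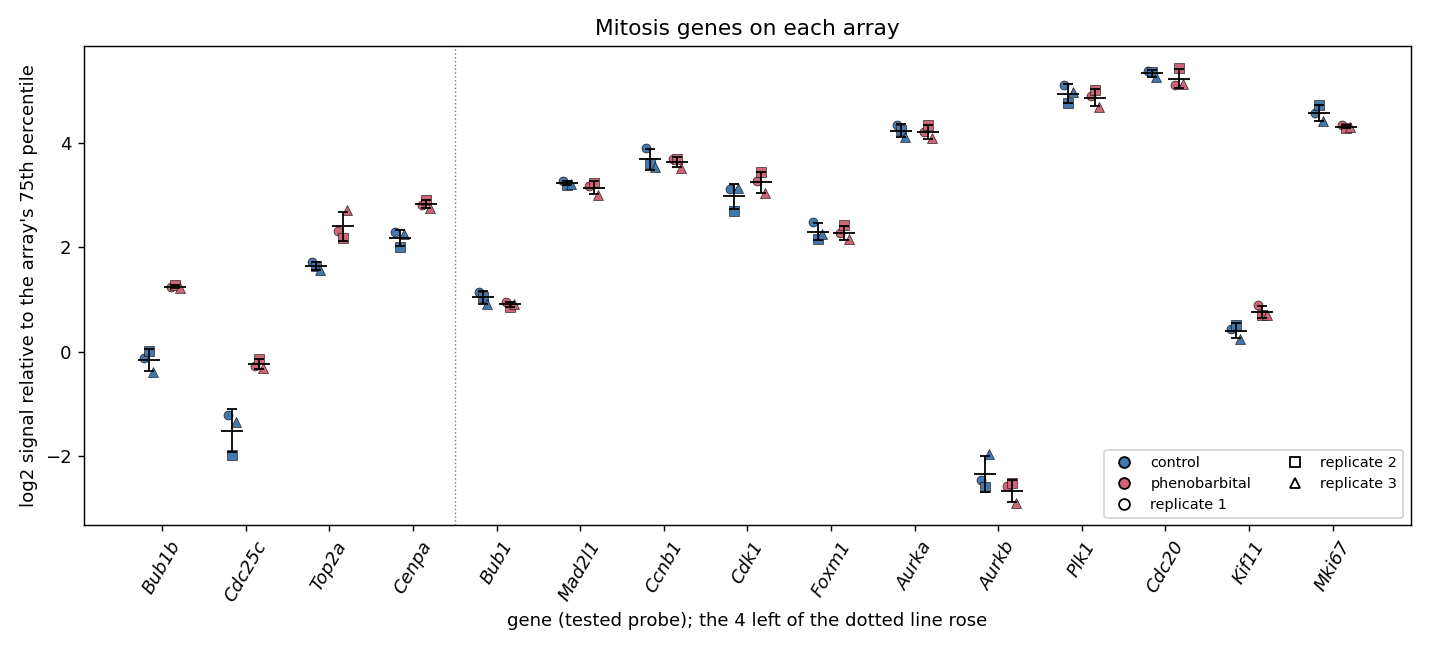
Log2 signal relative to the array's 75th percentile (y axis) for 15 of the 49 genes (x axis), 1 point per array, blue for control and red for phenobarbital (circle, square and triangle for replicates 1 to 3), with mean and SD (n = 3) in black. The 4 genes left of the dotted line rose, from -0.16 to 1.25 on average for Bub1b, and heights are not compared between genes.

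Probes of 1 gene often differed. Of the 49 genes, 35 had 1 probe, 10 had 2 and 4 had 3, so that 18 probes stood beside the tested one, which is the probe with the highest mean signal. With every kept probe fitted, 10 of 67 member probes rose (14.9%, against 6.97% of all 34673 probes) and none fell (8.74% of all probes, 15.7% in either direction). Phenobarbital lay above control without overlap for 23 of the 67 (13.5% of all probes) and below for 10 (30.2%, or 43.7% of all probes either way). Of the 10, 4 were the tested probes above and 6 were other probes, so that 10 genes had a probe that rose. Of the 18 other probes 6 rose, or 33.3%, against 15.0% of 4780 such probes of all named genes, and none fell (5.48%, or 20.5% in either direction). Phenobarbital lay above control without overlap for 8 of the 18 (27.8% of the 4780) and below for 1 (21.4%, or 49.2% either way). None of the 6 genes passed on its tested probe.

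Cdca8 differed the most. Its other probe stood at 0.14, -0.29 and 0.07 on control and at 1.70, 1.64 and 1.76 on phenobarbital arrays, a rise of 1.73 ± 0.14 (limma, adjusted p = 0.00246), where the tested probe had -0.20 ± 0.11. This probe passed under all 19 other ways of processing in which it was fitted. The other probe of Ccnb1 that rose stood at -1.73, -1.46 and -1.87 against -0.52, -0.60 and 0.18, a rise of 1.37 ± 0.24 (adjusted p = 0.0180). Its remaining probe had 0.45 ± 0.17 and did not pass. The other probe of Foxm1 stood at -2.99, -3.84 and -3.10 against -2.07, -2.01 and -1.91, a rise of 1.31 ± 0.23 (0.0193). With normexp background correction the Foxm1 value was 0.79, and it passed. In these 3 genes the tested probe's groups overlapped or lay the other way, while those of the probe that rose were apart.

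One Birc5 probe stood at 0.94, 1.01 and 0.65 on control and at 1.86, 1.73 and 1.87 on phenobarbital arrays, a rise of 0.95 ± 0.13 (limma, adjusted p = 0.00971), and another had 0.29 ± 0.14. The 3 Birc5 probes thus had -0.39, 0.29 and 0.95. The Birc5 probe that rose is annotated to a different RefSeq transcript from the others. The other Tpx2 probe stood at -1.63, -1.60 and -1.42 against -0.97, -0.91 and -0.77, a rise of 0.67 ± 0.12 (0.0184). It too is annotated to a different transcript from the tested probe. For Ube2c both probes lay above control on every phenobarbital array. Its other probe stood at 3.53, 3.51 and 3.48 against 4.32, 4.32 and 4.24, a rise of 0.78 ± 0.10 (0.00664), and the tested probe had 0.37. Calls of these probes were lost without single arrays: Ccnb1 without control replicate 1 (adjusted p = 0.0663), Foxm1 without any phenobarbital replicate (0.0623 to 0.0707) and Tpx2 without control replicate 1 (0.0755) or any phenobarbital replicate (0.0541 to 0.0687). With the slide as a fixed block the probes of Cdca8 and Foxm1 passed, and those of Ccnb1, Birc5, Tpx2 and Ube2c had 1.41, 0.88, 0.74 and 0.76 and did not. With the slide as a random block all 6 passed, with adjusted p from 0.00285 to 0.0245. When a gene's probes were averaged, Cdca8, Ccnb1 and Foxm1 turned from a value below 0 to 0.76, 0.59 and 0.65 and passed (adjusted p = 0.00960, 0.0390 and 0.0443), and Birc5 and Tpx2 turned to 0.29 and 0.29 and did not.

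Probes of the other 8 genes with several probes all missed the threshold. The 3 Cdk1 probes had 0.27, 0.07 and 0.07, and the 3 Mad2l1 probes -0.09, -0.20 and 0.10. The pairs were -0.17 and -0.24 for Incenp, 0.47 and 0.32 for Kif2c, 0.07 and 0.15 for Racgap1, 0.68 and 0.09 for Nuf2, and -0.14 and -0.46 for Pttg1. Over the 18 pairs of members, signs were opposite in 44.4% and values differed by over 1 in 22.2%, and over the 4780 pairs of all named genes in 41.3% and 14.5%. Signal moved with these calls. Among all kept probes in 4 classes of brightness, from the dimmest to the brightest, 5.58%, 8.57%, 10.3% and 3.39% rose, and 5.74%, 7.54%, 8.20% and 13.5% fell. Of the 10 member probes that rose, 1, 6 and 3 lay in the second, the third and the brightest class, which hold 7, 21 and 37 member probes. The other probe had the higher log2 fold change in 61.1% of the member pairs and in 68.7% of all pairs. The part of signal in these differences was not tested, and the place of each probe on its transcript was not used here.

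**Figure D3:**
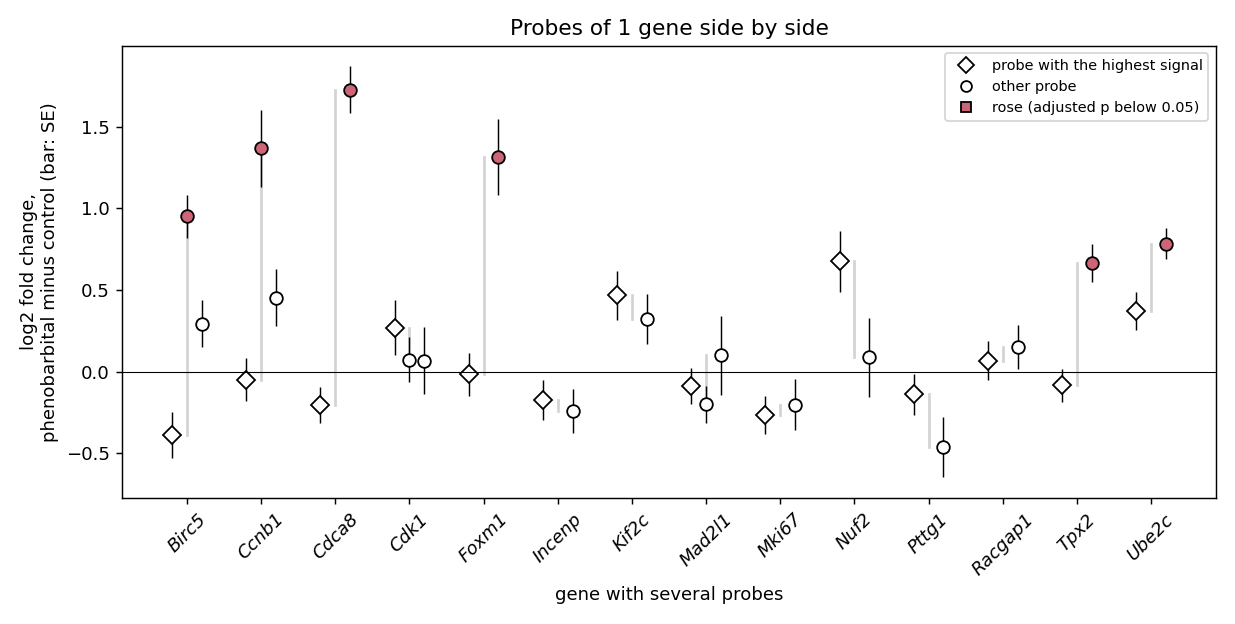
Log2 fold change (phenobarbital minus control, y axis, bar: SE) of every probe of the 14 genes with several probes (x axis), as diamonds for the probe with the highest signal and circles for the others, filled red where the probe rose. The 6 red circles, from 0.67 for Tpx2 to 1.73 for Cdca8, stand above diamonds between -0.39 and 0.37.

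The 49 genes did not differ from array to array in 1 direction. Against the mean of the 3 controls, their median deviation was 0.09, 0.00 and -0.05 on control replicates 1 to 3 and 0.02, 0.10 and -0.15 on phenobarbital replicates 1 to 3, so that the groups overlapped. All genes tested had 0.01, 0.00 and -0.00 on control and -0.15, -0.14 and -0.19 on phenobarbital arrays. Phenobarbital replicate 3 held the lowest value of 22 of the 49 genes and control replicate 1 that of none, while control replicate 1 held the highest value of 16 and phenobarbital replicate 2 of 14. Within slide 1, where control replicate 1 is the only control, the list's median was -0.10, with 20 genes above 0 and 29 below. The summed level of the 49 was 528 to 586 on control and 486 to 557 on phenobarbital arrays, which overlapped.

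**Figure D4:**
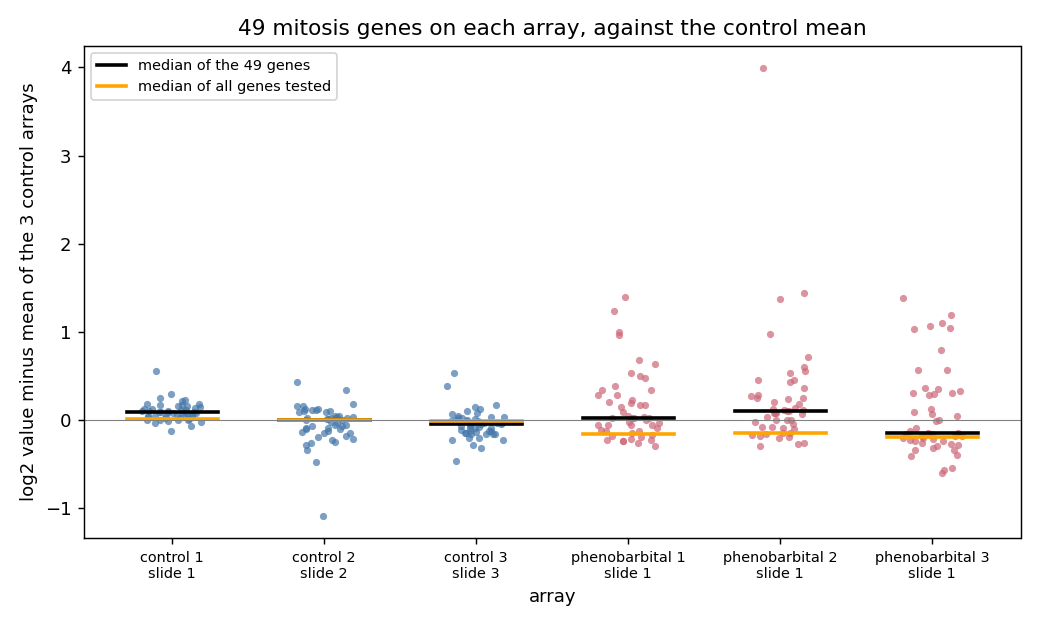
Each point is 1 of the 49 genes on 1 array (x axis), as its log2 value minus its mean over the 3 control arrays (y axis), with the median of the 49 in black and of all genes tested in orange. The medians of the 49 overlap between groups, from -0.05 to 0.09 on control and from -0.15 to 0.10 on phenobarbital arrays, and the point at the top is Ttk on phenobarbital replicate 2.

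A wider list of 101 other mitosis genes was also chosen by function, with earlier results of these data known. Of its 99 members tested, 9 rose (9.09%, against 6.24% of all genes), 3 fell (3.03%, against 10.5%) and 87 did not pass. Its median was -0.10, against -0.16 for all genes. The list of other mitotic kinases and spindle proteins had 3 rises, no fall and 17 that did not pass. Dlgap5, a spindle protein that steadies kinetochore fibres, stood at -2.01, -1.77 and -2.28 on control and at -0.39, -0.37 and -0.09 on phenobarbital arrays, a rise of 1.74 ± 0.16 (limma, adjusted p = 0.00373), with 1.24 on its other probe. Ckap2l, a spindle protein of neural progenitors, stood at -1.38, -1.20 and -1.65 against 0.04, -0.05 and 0.32, a rise of 1.51 ± 0.16. The kinase gene Nek6 rose by 0.48 ± 0.11 and had 0.49 on its other probe. Of 31 other kinetochore and checkpoint genes 3 rose and 1 fell. Cenpt, which anchors the NDC80 complex, rose by 0.37, and Zwint, a partner of the kinetochore, fell by 0.42. Hjurp, the chaperone that loads the Cenpa protein onto centromeres, rose by 0.89 ± 0.11, with 1.08 and 0.11 on its other probes, and Cenpn, which binds Cenpa nucleosomes, by 0.87 ± 0.18. None of the 8 condensin genes passed. Of 13 cohesin genes the loader Nipbl rose by 0.70 ± 0.12 and Stag1, a cohesin subunit, fell by 0.37 (its other probe had -0.17 and missed the threshold), and of 17 genes of the anaphase-promoting complex Cdc23 rose by 0.88 ± 0.20 and Anapc5, a scaffold subunit, fell by 0.49. The other Anapc5 probe went the other way, at 0.25, and did not pass. Of 10 genes of the DREAM and MuvB complexes, which act on the CHR, Tfdp1 rose by 1.03 ± 0.19 and 9 did not pass. The counts of this list fell to between 3 and 5 without any 1 array other than control replicate 2, to 2 with the slide as a fixed block and to 7 with it as a random block.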

How the data were processed

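RNA of 6 samples was labelled with Cy3 and read on 1-colour Agilent arrays. The deposited intensity of each spot is linear and was background-corrected by Feature Extraction 10.7.3.1, per the file headers (10.7 in the submitters' processing notes). The authors' deposited value table holds log2 values, which for probes with 1 spot differed between arrays as the scanner's log2 signals did once a constant per array was taken out (99th percentile of the deviation 1.78e-06). Those constants were not the 75th percentiles used here to the last digit, and 4182 genes were called from that table. The table's centring constant per probe stays unknown. Its column medians were 0.08, 0.10 and 0.09 on control and -0.02, -0.09 and -0.08 on phenobarbital replicates 1 to 3.

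Main values were log2 processed signals minus the array's 75th percentile, with outlier spots missing and replicate spots averaged. Probes had to exceed background on all arrays of either group, with 2 values per group (34673 of 55681). Accessions were named through the RefSeq gene table (GRCm38.p6, names only), which named 26582 probes. The brightest kept probe stood for a gene (25304 names). Groups were compared with limma 3.58.1 in R 4.3.3 (two-sided, Benjamini-Hochberg, 0.05), fitted over all genes and, apart, over all probes. The fit was also run on simulated data with independent noise on each array and no slide effect. That run therefore cannot speak to the overlap of slide and group here. Named with values on each array were members past the threshold on any probe, those whose probes differed by over 1, and 14 core genes. Of the wider list, all genes past the threshold were named, with values on each array for Dlgap5 and Ckap2l. The members and lists were chosen with earlier results of these data known. Normexp used median spot signals. Correlations of same-numbered replicates' deviations were 0.08, -0.16 and -0.35, against best other matches of 0.06, 0.33 and 0.25. With deviations taken within groups of 3 arrays, these values cannot settle whether the numbers pair the samples. The number of arrays limits the precision.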

Additional observations from a re-analysis of the deposited data

How the results depend on the processing

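Bub1b passed under all 20 alternatives. No alternative turned the sign of Bub1b, Cdc25c, Cenpa, Top2a or the 6 other probes that rose. On the gene level the sign of 23 of the 49 members turned under a setting, Birc5, the lowest of them, included. Averaging a gene's probes gave 0.76 for Cdca8, 0.59 for Ccnb1, 0.65 for Foxm1 (all 3 past the threshold), 0.29 for Birc5 and 0.29 for Tpx2. Turned values below the threshold, after quantile normalization, were 0.16 for Aurka, 0.12 for Ccnb1, 0.15 for Cdc20, 0.051 for Cdca8, 0.0996 for Foxm1, 0.087 for Mad2l1, 0.15 for Plk1 and 0.092 for Tpx2. With normexp they were 0.10 for Aurka, 0.0898 for Ccnb1, 0.059 for Foxm1 and 0.058 for Plk1. Scaled to the median they were 0.016 for Aurka and 0.025 for Foxm1. With the percentile over detected probes they were 0.064 for Aurka, 0.042 for Ccnb1, 0.073 for Foxm1, 0.0013 for Mad2l1, 0.011 for Plk1 and 0.0063 for Tpx2. Leaving out 1 array gave -0.091 to 0.035 for Aurka, -0.12 to 0.061 for Ccnb1, -0.0901 to 0.074 for Foxm1 and -0.17 to 0.0095 for Plk1. Other counts moved. Main counts were 4234 genes, 5445 probes, 4 members, 10 member probes and 12 wider genes. With array weights they were 10175, 13724, 13, 20 and 25. Among the members called with array weights, Anln, Birc5 (-0.31) and Nusap1 fell and the others rose. With no filter on dim probes the counts were 1486, 1885, 2, 6 and 4. With the slide as a fixed block they were 771, 1107, 1, 3 and 2, and with it as a random block the wider list had 7. Array scaling to the median gave 2470 genes and 3582 probes, the percentile over detected probes 2716 genes, and normexp 9084 probes and 8 members. Averaging a gene's probes gave 8 members and a trended, robust prior 7. The members' median was 0.17 after quantile normalization, 0.079 with the percentile over detected probes, 0.11 with probes averaged per gene and -0.10 with the slide as a fixed block. The median of all genes was -0.16, and -0.06 after quantile normalization. Leaving out 1 array gave 877 to 4462 genes, 1388 to 5811 probes, 1 to 6 members, 5 to 11 member probes, 3 to 11 wider genes and members' medians of -0.08 to 0.07. Whether the replicate numbers pair the samples is not known. With the replicate block 295 genes, 622 probes, 1 member, 2 member probes and 1 wider gene passed. The share of rises among genes called was 37.3%. Under other scalings it was 54.5% (quantile), 58.4% (median) and 59.4% (detected probes). Over all alternatives it ran from 24.1% with normexp to 91.5% with the replicate block, with 78.9% for the fixed slide block, 75.1% without phenobarbital replicate 2 and 72.9% without control replicate 1. Of the 49 members, 16 passed under at least 1 setting, among them Anln, Birc5 and Nusap1 as falls, with array weights alone. The causes were not tested.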
